A study of Rattus norvegicus with 52 samples.

Results

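The genes described here are the Wnt ligands, their receptors and the secreted proteins that modulate them, in sorted rat mammary epithelial cells. They were taken by symbol: every row of the gene count tables named Wnt, Fzd, Sfrp, Rspo or Dkk with a number, together with Lgr4 to Lgr6, Lrp5, Lrp6, Axin2, Lef1 and the Tcf7 genes. The rule found 46 of 17356 genes: 18 Wnt ligands, 9 Frizzled receptors, the co-receptors Lrp5 and Lrp6, the R-spondin receptors Lgr4 and Lgr5, 3 R-spondins, 8 secreted inhibitors (Dkk1 to Dkk4, Sfrp1, Sfrp2, Sfrp4 and Sfrp5), and Axin2, Lef1, Tcf7l1 and Tcf7l2. Wnt2, Fzd7, Lgr6 and Tcf7 were not analysed here. No measured value entered the rule, but it was chosen with earlier results of these data known.

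The 48 RNA-seq libraries came from 2 experiments on virgin or implanted females. In the first, wild type (Cdkn1b+/+) and p27 knockout (Cdkn1b-/-) rats on the ACI background were compared, the knockouts being littermates that carried the DEL-32 or DEL-65 deletion in exon 2 of Cdkn1b. Both deletions were made in zygotes of another strain, Sprague-Dawley, and backcrossed to ACI, and p27 was absent from the whole animal, not from the mammary epithelium alone. Glands from early and later backcross generations were sorted, and the labels give neither the generation nor the allele of a library. At 9 weeks there were 2 libraries per genotype in each of 4 populations: Cd24+Cd29high basal cells, Cd24+Cd29low cells without Cd49b and PNA binding (mature luminal), and the PNA+ and the Cd49b+ fractions of Cd24+Cd29low cells, which together are the luminal progenitor (LP) libraries. At the labelled age of 4 weeks (3.4 or 4 weeks in the titles) there were 3 wild type and 2 knockout basal libraries and 3 luminal libraries per genotype. At 6 weeks (5.3 or 5.9 in the titles) there were 3 wild type and 2 knockout basal libraries and 2 luminal libraries per genotype. In these younger rats the luminal gate took all Cd24+Cd29low cells. In the second experiment, rats of the ACI strain, which develops mammary tumours under estrogen, and of the resistant BN strain carried silastic implants with or without 17β-estradiol (E2). It gave 2 ACI control, 2 ACI E2, 1 BN control and 1 BN E2 library in basal and as many in luminal cells, with no age in the labels. Each BN title names a pair of rats, and whether these were pooled is not stated. The labels name no animal for the 9-week libraries, which carry the numbers 1 and 2, so p-values measure the spread between libraries, which may be in part technical.

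Wnt proteins are lipid-modified signals that act over short distances. They bind a Frizzled receptor, in the canonical branch together with Lrp5 or Lrp6, and the signal stabilises β-catenin, which then acts in the nucleus with the DNA-binding factors Lef1, Tcf7l1 and Tcf7l2. R-spondins, read by Lgr4 and Lgr5, keep Frizzled receptors at the cell surface and so strengthen the signal, Sfrp proteins bind Wnts outside the cell, and Dkk1, Dkk2 and Dkk4 act on Lrp5 and Lrp6. In the mammary gland Wnt4 and Rspo1 are known as progesterone-linked signals of luminal cells, and Axin2 and Lgr5 are widely used as readouts of the canonical branch in basal cells.

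Axin2 is the classical direct target of the canonical branch, and the stretch before its start site shows the letters that Tcf and Lef factors are known to recognise. The following 127 bases of the RefSeq GRCr8 assembly, chr10:94398543-94398669 on the plus strand, cover positions -242 to -116 from the start of the gene, with the matches at -232 and -132 in capitals.

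Axin2: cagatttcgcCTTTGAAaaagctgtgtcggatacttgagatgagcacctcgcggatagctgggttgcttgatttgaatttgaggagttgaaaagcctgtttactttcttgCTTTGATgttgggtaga

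Searched on both strands, CTTTGAT occurred in 3.63% and CTTTGAA in 5.4% of 33469 RefSeq promoter windows, and their common letters CTTTGA in 16.1%. Of the 31 genes of the module with a window, Axin2 alone held CTTTGAT, while CTTTGAA was also found before Dkk1 and Wnt8a. A match describes the letters only. In the RefSeq gene order 4 pairs of Wnt genes lie next to each other with no protein-coding gene between them: Wnt3a and Wnt9a, Wnt9b and Wnt3, Wnt10b and Wnt1, and Wnt6 and Wnt10a.

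The reads assigned to genes numbered 7985619 to 33859550 a library, the 9-week libraries (21545344 to 33859550) being the deepest and the 6-week ones (7985619 to 16390460) the shallowest. Levels are given in CPM, counts divided by the TMM-scaled library size, and differences as log2 fold changes with their standard errors (SE) from edgeR's quasi-likelihood fits, a gene being called at a Benjamini-Hochberg adjusted p under 0.05 over all genes tested. At 9 weeks Cdkn1b itself was at 1.99 to 4.43 CPM in knockout and 7.17 to 16.5 CPM in wild type libraries. At 4 weeks it was at 14.7 to 38.4 CPM in wild type and 10.1 and 10.2 CPM in knockout basal libraries, and it overlapped between genotypes in luminal cells. At 6 weeks the luminal library labelled knockout replicate 2 held 33.8 CPM, between the 29.3 and 40.4 CPM of the wild type luminal libraries, while the basal library labelled wild type replicate 3 held 3.20 CPM. Both libraries also stood apart otherwise: the first had a summed level of 3480 CPM for 7 fibroblast markers and 1477 CPM for 7 endothelial markers, and the second was the shallowest. Basal markers were higher in every basal than in every luminal or LP library at 9 weeks. The labels of the luminal fractions did not match their markers: at 9 weeks 4 LP markers (such as Kit and Elf5) summed to 829 to 1942 CPM in wild type libraries labelled mature luminal and 384 to 1127 CPM in those labelled LP, and 5 hormone-sensing markers (such as Esr1 and Pgr) to 161 to 185 CPM and 335 to 452 CPM. In knockout libraries both sums overlapped between the gates. The LP sum was 2585 and 1026 CPM in mature luminal and 613 to 2235 CPM in LP libraries. The hormone-sensing sum was 65.1 and 273 CPM in mature luminal and 180 to 254 CPM in LP libraries. "Luminal" and "LP" are therefore used below as names of gates. In sorted bulk samples fewer cells of a type and less RNA per cell cannot be told apart.

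Of the 46 genes, 33 passed the filter on low counts at 9 weeks. The other 13 were Dkk1, Fzd8, Fzd10, Rspo2, Wnt1, Wnt3, Wnt3a, Wnt7a, Wnt8a, Wnt8b, Wnt9b, Wnt10b and Wnt16. Dkk1, an antagonist of Lrp5 and Lrp6, had 0 counts in all 48 libraries, and Fzd8 had 1. Of the canonical ligands, Wnt3a had 44 counts over all 48 libraries, 25 of them at 9 weeks, and Wnt10b had 137, 34 of them at 9 weeks. Wnt1 had 263 counts, of which 31 were at 9 weeks, and its highest level was 4.26 CPM in the BN control basal library. These ligands were thus near the limit of detection in the sorted epithelium.

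In the first experiment more of these genes were called between the epithelial layers than between genotypes or ages, a difference in counts that was not itself tested. Basal against luminal cells at 9 weeks, averaged over genotypes, gave 19 called genes of the 33 tested, against 38.7% of all 12809 genes: 13 were higher in basal (20.4% of all genes) and 6 higher in luminal cells (18.4% of all genes). The median log2 difference of the 33 was 0.63, with -0.04 over all genes. Values below list wild type number 1 and 2, then knockout number 1 and 2.

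Among the ligands, the neighbours Wnt6 and Wnt10a were nearly restricted to the basal gate. Wnt6 was at 47.5, 34.7, 28.7 and 36.4 CPM in basal and 1.17, 0.631, 0.162 and 0.409 CPM in luminal libraries, a log2 difference of 6.33 (SE 0.71, adjusted p = 2.41e-05). Wnt10a was at 31.0, 77.5, 117 and 182 CPM in basal and 0.408, 1.07, 2.22 and 1.02 CPM in luminal libraries (6.54, SE 1.02, adjusted p = 0.000232). Neither gene overlapped between the gates. Wnt11, a ligand linked to cell movement, followed with 203, 272, 197 and 248 CPM in basal against 32.0, 35.8, 20.0 and 82.1 CPM in luminal libraries (2.66, SE 0.37, adjusted p = 9.84e-05). Wnt5a, the best studied non-canonical ligand, was called with a smaller difference of 1.85 (SE 0.41, adjusted p = 0.00285), and its basal libraries (6.48 to 16 CPM) overlapped the luminal ones (0.920 to 8.78 CPM).

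The called ligands that went the other way were Wnt5b, Wnt7b and Wnt4. Wnt5b was at 18.2, 49.4, 25.8 and 19.7 CPM in basal and 137, 111, 107 and 90.0 CPM in luminal libraries, so that all 4 luminal libraries lay above all basal ones (-1.80, SE 0.30, adjusted p = 0.000426). Wnt7b was at 0.727 to 3.45 CPM in basal and 3.58 to 24.0 CPM in luminal libraries (-2.19, SE 0.82, adjusted p = 0.0476). Wnt4 was at 12.4 to 35.9 CPM in basal and 24.2 to 156 CPM in luminal libraries (-1.38, SE 0.50, adjusted p = 0.0438), with overlap. Wnt5a and Wnt5b, close relatives in sequence, thus differed between the gates in opposite directions. With wild type libraries alone Wnt5b was still called, but neither Wnt5a nor Wnt4 was.

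**Figure D1:**
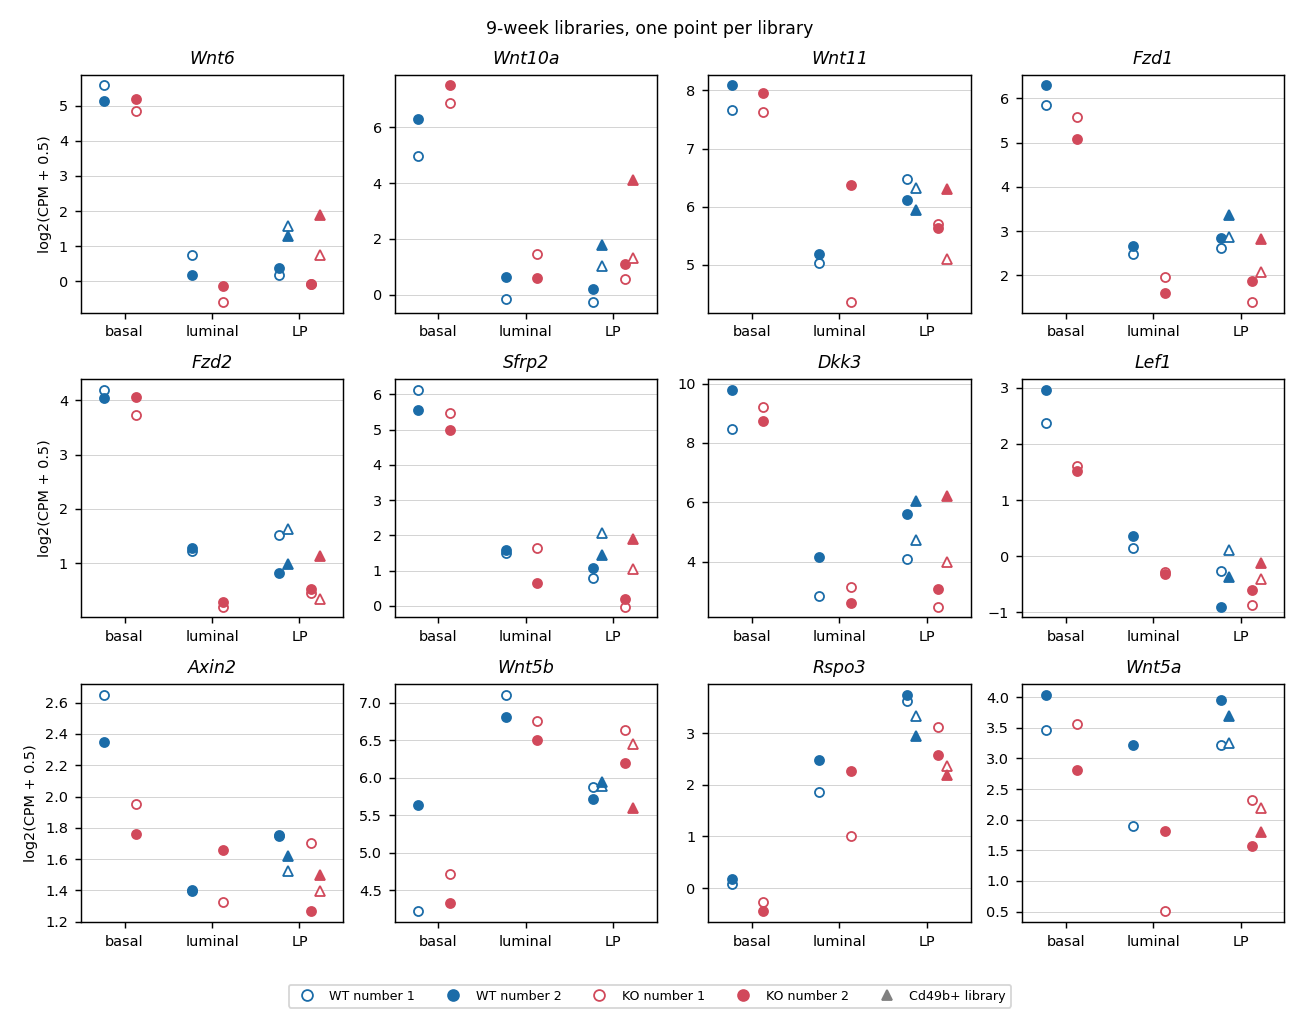
Levels of 12 Wnt genes at 9 weeks, on the log2(CPM + 0.5) scale, by sorted population (basal, luminal, LP). Each point is 1 library, blue for wild type and red for knockout, open for number 1 and filled for number 2, with triangles for Cd49b+ libraries; Wnt6 and Wnt10a lie far higher in the basal column and Wnt5b lies higher in the luminal column.

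The receptors were split in the same way. Fzd1 was at 57.1, 78.1, 47.3 and 33.2 CPM in basal and 5.10, 5.87, 3.41 and 2.5 CPM in luminal libraries (3.88, SE 0.33, adjusted p = 3.21e-06). Fzd2 was at 12.7 to 17.7 CPM in basal and 0.649 to 1.94 CPM in luminal libraries (3.95, SE 0.33, adjusted p = 3.17e-06). Both were without overlap, whereas Fzd3 (-0.79, SE 0.20, adjusted p = 0.00608) and Fzd6 (-0.89, SE 0.30, adjusted p = 0.0332), receptors known from planar cell polarity, were higher in luminal cells by smaller amounts, also without overlap. Fzd4, Fzd5 and Fzd9, Lrp5, Lrp6, Lgr4 and Lgr5 were not called. Lrp6 held 53.9 to 113 CPM in basal and 33.6 to 89.7 CPM in luminal libraries, and Lgr4 46.4 to 77.0 and 25.8 to 70.5 CPM, so the co-receptor and the R-spondin receptor were present on both sides.

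All 4 called inhibitors were higher in basal cells. Dkk3, a Dickkopf family member whose link to Lrp5 and Lrp6 is less clear than that of its relatives, was at 352, 881, 586 and 425 CPM in basal and 6.64, 17.5, 8.22 and 5.62 CPM in luminal libraries (6.13, SE 0.88, adjusted p = 0.000132). Sfrp2, which binds Wnts outside the cell, was at 69.2, 46.2, 44.0 and 31.2 CPM in basal and 2.3, 2.52, 2.60 and 1.07 CPM in luminal libraries (4.63, SE 0.56, adjusted p = 3.98e-05). Sfrp5 differed by 2.5 (SE 0.45, adjusted p = 0.00071). Sfrp1 was high on both sides, at 119 to 195 CPM in basal and 95.9 to 119 CPM in luminal libraries, and differed by 0.78 (SE 0.20, adjusted p = 0.00623). Of the 7 called ligands, by contrast, 4 were higher in basal and 3 in luminal cells. The only R-spondin called, Rspo3, was higher in luminal cells, at 1.51 to 5.10 CPM against 0.233 to 0.636 CPM (-2.88, SE 0.39, adjusted p = 9.2e-05).

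Of the nuclear factors, Lef1 was at 4.67, 7.29, 2.56 and 2.38 CPM in basal and 0.307 to 0.777 CPM in luminal libraries (3.21, SE 0.59, adjusted p = 0.000807). The target Axin2 was at 5.78, 4.60, 3.37 and 2.89 CPM in basal and 2.00 to 2.66 CPM in luminal libraries, and differed by 1.03 (SE 0.22, adjusted p = 0.00253) without overlap. Tcf7l1, known mainly as a repressor of Wnt targets, was higher in basal cells by 0.63 (SE 0.15, adjusted p = 0.00528), and Tcf7l2 was not called. The difference of Axin2 was thus smaller on the log2 scale than those of Lef1, Fzd1 or Wnt6. With wild type libraries alone 13 of the 19 genes were called, with 2729 in place of 4961 over all genes. Fzd3, Fzd6, Sfrp5, Tcf7l1, Wnt4 and Wnt5a were not. Fzd6 and Wnt4 were also not called when only the basal and luminal libraries were fitted.

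Beside the module stood a list of 65 further genes of the pathway, 58 of them in the files. Of 57 tested at 9 weeks, 28 were higher in basal cells (20.4% of all genes) and 1 lower (18.4% of all genes), with a median log2 difference of 0.63 against -0.04 over all genes. The largest were Ror2, a receptor for Wnt5a (7.10, SE 0.72, adjusted p = 1.22e-05), the extracellular antagonists Sostdc1 (6.23, SE 0.90, adjusted p = 0.000131) and Sost (5.73, SE 1.23, adjusted p = 0.00271), the Dickkopf receptor Kremen2 (6.21, SE 0.92, adjusted p = 0.000161), and the feedback inhibitor Nkd1 (5.64, SE 0.69, adjusted p = 4.28e-05). Wls, which carries Wnts to the cell surface, was also higher in basal cells (1.07, SE 0.20, adjusted p = 0.00077). Fibroblast markers moved with the basal gate, at 563 to 3121 CPM in basal and 125 to 1004 CPM in luminal libraries over 7 genes, and their part in these differences was not tested.

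Basal and luminal cells were also compared separately at 4 weeks, at 6 weeks and in the E2 experiment, none of which shares libraries with another. The luminal gate was not the same throughout. At 4 and 6 weeks it took all Cd24+Cd29low cells, at 9 weeks only those outside the LP gates. Differences from the 9-week result below are therefore also differences of gate. At 4 weeks 22 of 35 tested genes were called (35.1% of all genes), 15 higher in basal (20.3%) and 7 higher in luminal cells (14.8%). Of the 13 genes higher in basal cells at 9 weeks, all 13 had the same sign at 4 weeks and 12 were called, and of the 6 higher in luminal cells all 6 had the same sign and 4 were called. Axin2 was the exception among the basal genes, with 1.39 (SE 0.52, adjusted p = 0.0549), and Lef1 was called with 3.4 (SE 0.70, adjusted p = 0.00186).

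The secreted inhibitors Sfrp2 and Dkk3 and the ligand Wnt6 had the most separate levels at 4 weeks. Sfrp2 was at 107 to 166 CPM in the 5 basal and 0.201 to 1.5 CPM (median 0.314) in the 6 luminal libraries (8.16, SE 0.50, adjusted p = 1.4e-07). Dkk3 was at 395 to 727 CPM and 0.225 to 4.42 CPM (8.26, SE 0.63, adjusted p = 6.8e-07), and Wnt6 at 23.6 to 55.4 CPM and 0.225 to 0.652 CPM (6.79, SE 0.36, adjusted p = 6.33e-08). Lgr5, the stem cell marker that reads R-spondins, was at 2.54 to 11.2 CPM in basal and 0 to 0.103 CPM in luminal libraries (6.96, SE 0.68, adjusted p = 4.87e-06), a difference not called at 9 weeks. Sfrp5 (6.40, SE 0.54, adjusted p = 1.6e-06), Wnt10a (5.89, SE 0.79, adjusted p = 6.73e-05), Fzd1 (4.00, SE 0.45, adjusted p = 1.6e-05), Fzd2 (3.77, SE 0.31, adjusted p = 1.21e-06) and Wnt5a (3.71, SE 0.38, adjusted p = 7.78e-06) were called in the same direction. Wnt16 had 59 counts over the basal and 0 over the luminal libraries, at least 23-fold higher against a floor of 3 counts over the group. Among called genes the largest difference toward luminal cells was that of Wnt7b (-3.42, SE 0.73, adjusted p = 0.00254), with Wnt4 next (-2.71, SE 0.37, adjusted p = 8.1e-05): Wnt4 was at 5.67 to 22.4 CPM in basal and 71.6 to 144 CPM in luminal libraries, without overlap. Rspo3 had a value of -3.84 (SE 1.46) and was not called (adjusted p = 0.0656). Sfrp4 was the only inhibitor of the Sfrp family higher in luminal cells at this age (-2.0, SE 0.41, adjusted p = 0.00184). Of the further pathway genes 21 of 55 were higher and 3 lower in basal cells, with a median of 0.39 against -0.01 over all genes, led by Sostdc1 (9.16, SE 0.61, adjusted p = 2.63e-07), Nkd1 (6.68, SE 0.48, adjusted p = 4.18e-07) and the Wnt-binding Wif1 (6.56, SE 0.54, adjusted p = 1.2e-06).

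At 6 weeks 6 of 33 genes were called (5.65% of all genes), all higher in basal cells (3.49%): Wnt6 (7.79, SE 1.77, adjusted p = 0.0389), Wnt10a (7.41, SE 1.38, adjusted p = 0.0146), Sfrp2 (6.34, SE 1.27, adjusted p = 0.0199), Sfrp5 (5.80, SE 1.24, adjusted p = 0.0262), Dkk3 (5.46, SE 0.91, adjusted p = 0.00872) and Sfrp1 (2.84, SE 0.53, adjusted p = 0.0143). Lef1 (3.47, SE 1.84) and Axin2 (1.19, SE 1.02) had adjusted p of 0.326 and 0.571. Without both libraries that stood apart 11 genes were called, while the calls over all genes rose from 673 to 1853. Of 54 further pathway genes 4 were higher in basal cells, Sostdc1, Wif1, Nkd2 and Cd44. In the E2 experiment none of 39 genes was called (1.96% of all genes), with 8 at an unadjusted p under 0.05 (15.3% of all genes) and 8 called by DESeq2. The lowest were Wnt6 (8.68, SE 2.04, adjusted p = 0.0585), Tcf7l1 (1.57, SE 0.38, adjusted p = 0.0626) and Wnt7b (-8.93, SE 2.34, adjusted p = 0.0841), while Lef1 (0.82, SE 2.73) and Axin2 (0.30, SE 1.00) were at adjusted p of 0.932 and 0.933. Without the ACI E2 replicate 1 libraries, whose basal library had the fewest detected genes (7716) and whose luminal library held 5294 CPM of fibroblast markers, 4 were called: Fzd1, Tcf7l1, Wnt6 and Wnt7b. The calls over all genes rose from 262 to 806. Over all 4 comparisons 16 genes leaned to basal and 6 to luminal cells each time, 10 changed sign, and 14 were not tested in all 4.

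**Figure D2:**
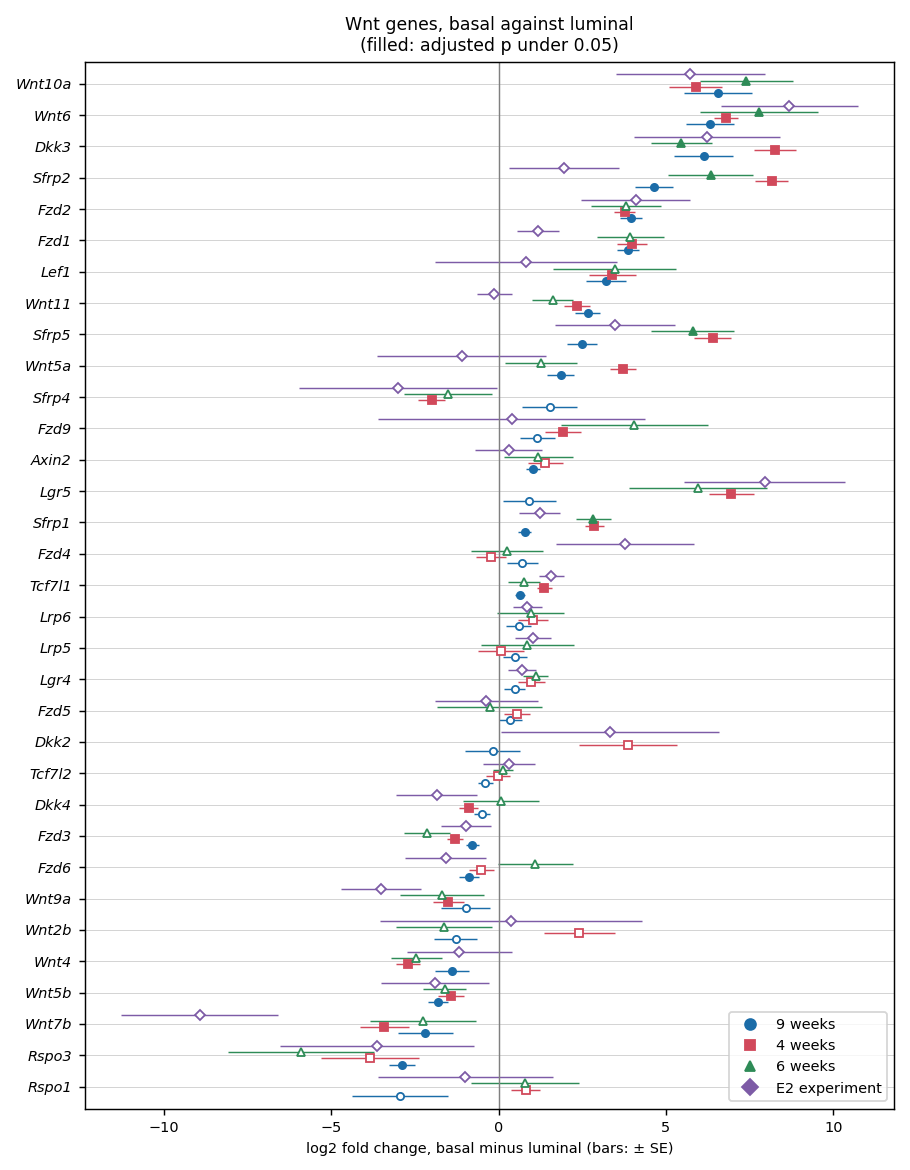
Log2 fold change, basal minus luminal, for the genes tested in the 4 separate comparisons (9 weeks, 4 weeks, 6 weeks, E2 experiment); bars are ± SE and filled points have an adjusted p under 0.05. Wnt6 lies between 6.33 and 8.68 in all 4, and the points of Wnt7b and Wnt4 lie below 0.

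Fewer genes of the module separated LP from luminal than from basal cells. Against luminal cells 4 of the 33 genes were called (23.4% of all genes), Fzd4 and Rspo3 higher and Wnt5b and Lgr5 lower in LP. Fzd4, a receptor also used by the ligand norrin in vessels, was at 2.37 to 10.9 CPM in the 8 LP libraries (median 6.47) and 1.17 to 3.07 CPM in the 4 luminal libraries (1.52, SE 0.42, adjusted p = 0.0202). Rspo3 was at 4.05 to 12.9 CPM (median 7.69) in LP and 1.51 to 5.10 CPM in luminal libraries (1.12, SE 0.31, adjusted p = 0.0205). Wnt5b was lower in LP (-0.76, SE 0.25, adjusted p = 0.0403), as was Lgr5 (-2.65, SE 0.76, adjusted p = 0.0229), which was at 0 to 0.164 CPM in LP and 0.146 to 0.613 CPM in luminal libraries and rests on few counts. All 4 overlapped between the gates. Endothelial markers also moved with the LP gate, at 154 to 991 CPM over 7 genes against 72.7 to 132 CPM in luminal libraries, none of them at 0, and their part in the levels of Fzd4 and Rspo3 was not tested. The sort was stained for Cd31, which marks endothelial cells, but its gate is not given in the sources used here. With the shared number as a block 15 genes were called, while the calls over all genes rose from 2999 to 5865. Without luminal wild type number 1 none was, and without luminal knockout number 1 there was 1. With the PNA+ and Cd49b+ libraries of a number added up there were 2, with 1490 over all genes. Axin2 (0.12, SE 0.19) and Lef1 (-0.86, SE 0.53) had adjusted p of 0.69 and 0.256.

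Against LP, 23 of 33 genes were called in basal cells (50% of all genes), 16 higher (27%) and 7 lower (23%). The genes farthest toward basal cells were Wnt10a (5.29, SE 0.70, adjusted p = 4.54e-05), Wnt6 (4.91, SE 0.48, adjusted p = 4.47e-06), Sfrp2 (4.89, SE 0.43, adjusted p = 2.11e-06), Dkk3 (4.38, SE 0.61, adjusted p = 6.53e-05) and Lef1 (4.07, SE 0.47, adjusted p = 1.5e-05), with Axin2 at 0.91 (SE 0.18, adjusted p = 0.00116). Fzd2 (3.64), Lgr5 (3.56), Fzd1 (3.51), Wnt11 (2.08) and Sfrp5 (1.75) were also higher in basal cells. Rspo3 was farthest toward LP (-3.99, SE 0.38, adjusted p = 3.78e-06), and Wnt7b was called on the same side (-1.93). Between the PNA+ and the Cd49b+ fractions none of 32 genes was called by edgeR (0% of all genes), with 5 at an unadjusted p under 0.05 (3.05% of all genes) and 2 called by DESeq2. Wnt6 was lower in all 4 PNA+ libraries (0.631, 0.799, 0.436 and 0.446 CPM) than in all 4 Cd49b+ libraries (2.5, 1.96, 1.18 and 3.21 CPM), with -1.98 (SE 0.41, adjusted p = 1), and Sfrp2 and Wnt10a differed by -1.57 (SE 0.40) and -2.55 (SE 0.66). Basal markers moved alike, at 312 to 460 CPM in PNA+ and 689 to 3086 CPM in Cd49b+ libraries over 9 genes, and their part was not tested.

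Loss of p27 was the question of the first experiment. At 9 weeks 1 gene of the module was called between genotypes, Wnt5a in the LP libraries. It was at 8.87 and 14.9 CPM in wild type and 4.50 and 2.48 CPM in knockout PNA+ libraries, and at 9.01 and 12.4 CPM and 4.05 and 2.98 CPM in Cd49b+ libraries. All 4 knockout values lay below all 4 wild type values, and Wnt5a fell by 1.66 on the log2 scale (SE 0.40, adjusted p = 0.0392), so 1 of 33 genes was called, against 3.4% of all genes and 1.29% in this direction. PNA+ and Cd49b+ libraries with the same genotype and number deviated together, so the 4 per genotype are not shown to be independent. When they were added up by number, or when any library of the LP comparison other than knockout Cd49b+ number 2 was left out, Wnt5a was no longer called. Without knockout Cd49b+ number 2, which held 3086 CPM of basal markers against 457 to 689 CPM in the other knockout LP libraries, 6 genes were called: Wnt5a, Dkk3, Fzd1, Fzd2, Fzd4 and Sfrp1. The share of all genes called in that fit is not given here. Fibroblast markers were at 575 to 1566 CPM in wild type and 214 to 1124 CPM in knockout LP libraries. The 5 hormone-sensing markers were at 335 to 452 CPM in wild type and 180 to 254 CPM in knockout LP libraries, without overlap and in the direction of Wnt5a, and the part of either cell type in its difference was not tested. In luminal cells Wnt5a was at 3.22 and 8.78 CPM in wild type and 0.920 and 3.02 CPM in knockout libraries (-1.54, SE 0.58, adjusted p = 0.539). In basal cells it overlapped.

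A further 8 genes had an unadjusted p under 0.05 in LP without being called, 9 with Wnt5a, where 18.3% of all genes did. Tcf7l1 came next, at 38.4 to 53.7 CPM in wild type and 54.5 to 75.8 CPM in knockout LP libraries without overlap (0.50, SE 0.15, adjusted p = 0.0927). The block on the library number added Tcf7l1 to the calls, and with LP libraries added up by number it was not called. Fzd1 was at 5.68 to 9.84 and 2.13 to 6.53 CPM (-0.89, SE 0.30, adjusted p = 0.128), and Sfrp1 at 56.2 to 78.5 and 65.2 to 114 CPM (0.55, SE 0.19, adjusted p = 0.149). Axin2 (-0.21, SE 0.22) and Lef1 (-0.40, SE 0.63) had adjusted p of 0.664 and 0.79. Of 57 further pathway genes 1 was called, Vangl2 of the planar polarity branch (-1.21, SE 0.23, adjusted p = 0.0123).

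In basal cells none of the 33 genes was called (0.0546% of all genes), with 1 at an unadjusted p under 0.05 (9.09% of all genes) and none called by DESeq2. That gene was Lgr5, at 3.60 and 0.374 CPM in wild type and 0.163 and 0.187 CPM in knockout libraries (-3.36, SE 1.12, adjusted p = 0.387), so that 1 library held most of it. Axin2 was at 5.78 and 4.60 CPM in wild type and 3.37 and 2.89 CPM in knockout libraries (-0.66, SE 0.31, adjusted p = 0.554), Lef1 at 4.67 and 7.29 and at 2.56 and 2.38 CPM (-1.23, SE 0.74, adjusted p = 0.663), and Fzd4 at 1.25 and 2.51 and at 3.82 and 5.74 CPM (1.39, SE 0.65, adjusted p = 0.554). None of these 4 genes overlapped between genotypes. In all 14 of the 33 genes did not overlap, 4 higher (17.8% of all genes) and 10 lower (19.3% of all genes) in knockout.

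In luminal cells none was called (0.133% of all genes), with 2 at an unadjusted p under 0.05 (7.15% of all genes) and none called by DESeq2. Fzd2 was at 1.84 and 1.94 CPM in wild type and 0.649 and 0.716 CPM in knockout libraries (-1.39, SE 0.45, adjusted p = 0.396), and Sfrp5 at 1.74 and 2.48 and at 1.03 and 0.511 CPM (-1.37, SE 0.64, adjusted p = 0.702). Axin2 (0.20, SE 0.32) and Lef1 (-1.05, SE 0.86) had adjusted p of 0.998 and 0.95. Whether the knockout effect differed between populations was tested by interaction terms, and no gene passed in any of the 3 (0% of all genes in each). At an unadjusted p under 0.05 there were 3 genes for LP against basal (Fzd4, Sfrp1 and Sfrp5, 7.23% of all genes), none for LP against luminal (1.75%) and Sfrp5 alone for basal against luminal (4.39%).

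**Figure D3:**
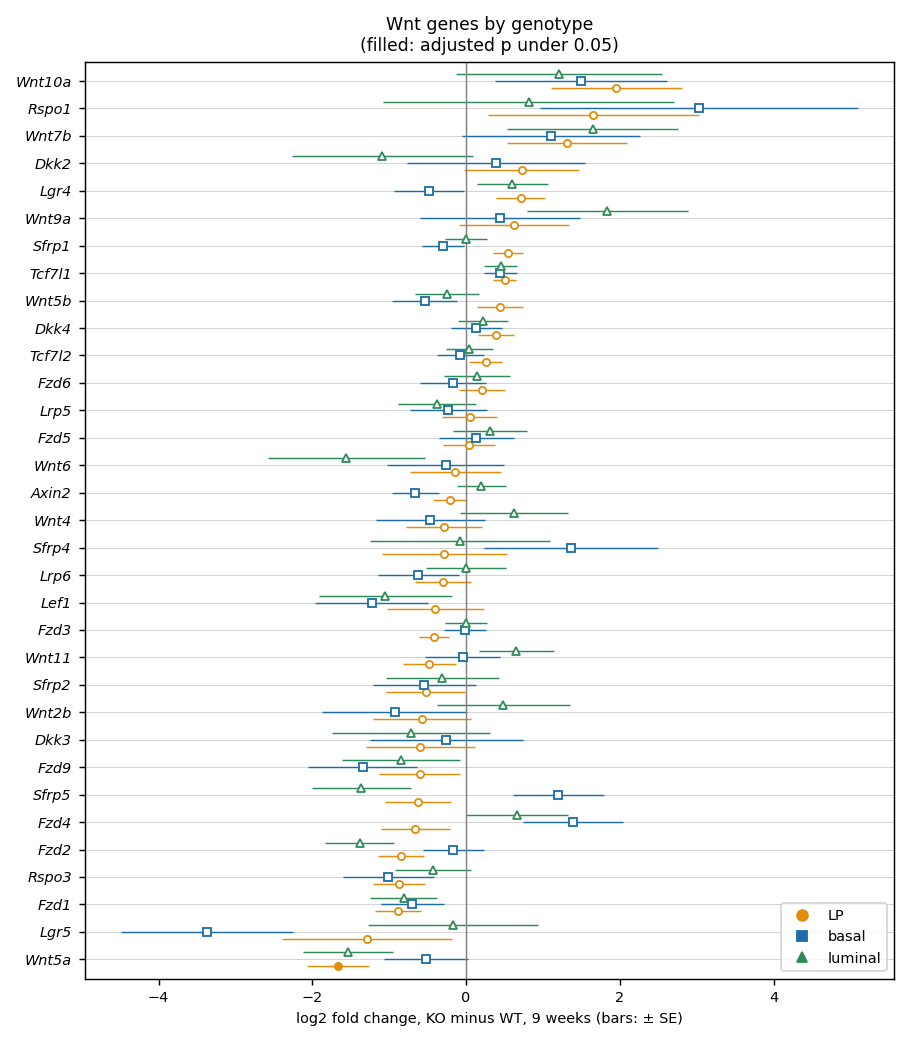
Log2 fold change, knockout minus wild type, at 9 weeks in basal, luminal and LP libraries for the genes tested; bars are ± SE. The only filled point, an adjusted p under 0.05, is Wnt5a in LP at -1.66.

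Within a genotype the libraries numbered 1 and 2 were far apart in Rspo1. This R-spondin was at 128, 44.4 and 44.2 CPM in the wild type luminal, PNA+ and Cd49b+ libraries numbered 1. In those numbered 2 it was at 5.48, 1.71 and 1.15 CPM. In the knockout the order was the opposite, with 10.2, 12.8 and 11.6 CPM in number 1 and 217, 152 and 121 CPM in number 2. The basal libraries followed, at 5.85 and 1.42 CPM in wild type and 4.63 and 50.7 CPM in knockout. The genotypes overlapped in Rspo1 in all 4 populations. A log2 ratio of knockout number 2 over number 1 above 2 in all 4 populations was found in Rspo1 alone of the 33 genes, and in 0.0781% of all genes. This rule was chosen after the values were seen.

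Wnt4 had the same order as Rspo1 in all 4 populations (9.03% of all genes), at 73.5 and 47.9 CPM in wild type luminal and 24.2 and 156 CPM in knockout luminal libraries. Fzd6, Lrp5, Lrp6, Wnt7b and Wnt9a had the opposite order in all 4 (8.68% of all genes), so Wnt7b was at 3.73 and 5.68 CPM in wild type luminal and 24.0 and 3.58 CPM in knockout luminal libraries. The LP marker sum moved with the numbers too. Over the luminal and LP gates it was 384 to 829 CPM in wild type number 1 and 1106 to 1942 CPM in number 2, and 1953 to 2585 CPM in knockout number 1 and 613 to 1088 CPM in number 2. Rspo1 was thus high where this sum was low. Over the same gates the hormone-sensing sum was 161 to 452 CPM in wild type number 1 and 185 to 439 CPM in number 2. In knockout it was 65.1 to 220 CPM in number 1 and 202 to 273 CPM in number 2. The part of the cell mixture was not tested. The labels do not say what the numbers mark.

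**Figure D4:**
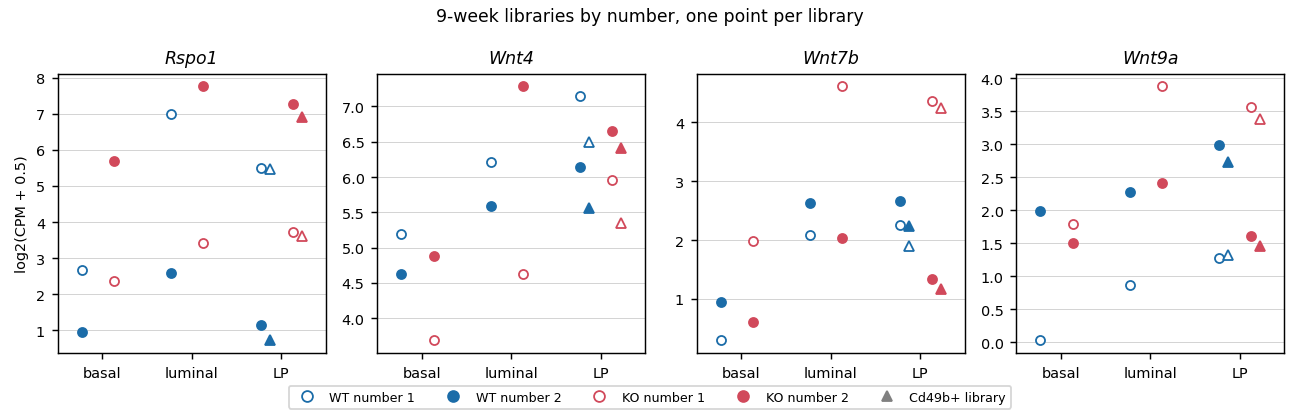
Rspo1, Wnt4, Wnt7b and Wnt9a at 9 weeks, on the log2(CPM + 0.5) scale, by sorted population. Each point is 1 library (blue wild type, red knockout, open number 1, filled number 2, triangles Cd49b+); in Rspo1 the open blue and filled red points lie above the filled blue and open red ones in each population.

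In younger rats no gene of the module was called between genotypes by edgeR. At 4 weeks this was 0 of 35 genes in basal and in luminal cells (0% of all genes in both), with 1 at an unadjusted p under 0.05 in each (2.57% and 3.6% of all genes) and none called by DESeq2. These were Rspo3 in basal cells, at 0 in the 3 wild type libraries and 0.861 and 0.0384 CPM in knockout, and Lef1 in luminal cells, at 0 to 0.0747 CPM in wild type and 0.0749 to 0.501 CPM in knockout (2.74, SE 1.04, adjusted p = 0.854). Both rest on few counts. Lef1 in basal cells (0.34, SE 0.90) and Axin2 in basal (-0.45, SE 0.78) and luminal cells (-0.95, SE 0.71) overlapped between genotypes. Dkk2 (2.64, SE 1.66) and Rspo1 (1.01, SE 0.64) in basal cells had adjusted p of 1, and Fzd5 in luminal cells differed by -1.01 (SE 0.53, adjusted p = 0.854).

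At 6 weeks none of 33 genes was called in either population (0% of all genes in both), with 2 at an unadjusted p under 0.05 in basal (8.99% of all genes) and 3 in luminal cells (16.4% of all genes). DESeq2 called none in basal and 3 in luminal cells. In basal cells these were Lgr4, at 75.5, 51.0 and 34.0 CPM in the libraries labelled wild type and 125 and 109.9 CPM in those labelled knockout (1.22, SE 0.50, adjusted p = 0.528), and Sfrp5, at 27, 1.92 and 2.69 CPM and 128 and 53.3 CPM (3.18, SE 1.31, adjusted p = 0.53). All 13 genes without overlap were higher in the knockout basal libraries (23.7% of all genes), and Schwann cell markers were at 1325 to 2323 CPM there against 320 to 438 CPM in wild type, fibroblast markers at 1886 to 2867 and 70.1 to 518 CPM, with the part of these cells not tested. In luminal cells Sfrp2 was at 0.649 and 20.0 CPM in knockout and 0 and 0.142 CPM in wild type libraries, Dkk3 at 2.79 and 45.9 and at 0.353 and 2.84 CPM, and Wnt5a at 2.01 and 0 and at 35.7 and 6.32 CPM. The highest Sfrp2 and Dkk3 and the 0 of Wnt5a came from the library labelled knockout replicate 2, which stood apart. Axin2 (1.30, SE 1.32) and Lef1 (2.01, SE 2.12) in basal and Axin2 (0.47, SE 1.47) and Lef1 (-3.4, SE 2.71) in luminal cells had adjusted p of 0.865, 0.872, 0.898 and 0.545.

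Age cannot be told apart here from any batch of collection or sequencing, and the 6-week libraries were the shallowest. Between 4 and 6 weeks, around puberty, 1 of 37 genes was called in wild type basal cells (10.5% of all genes), the repressor Tcf7l1. It was at 48.2, 64.6 and 61.5 CPM at 4 weeks and 22.8, 27.5 and 17.8 CPM at 6 weeks (-1.34, SE 0.41, adjusted p = 0.0442), without overlap. Leaving out any 1 of these 6 libraries other than 6-week replicate 2 ended the call, with values of -1.66 to -1.26. Marker sums moved between the ages in the same libraries, also without overlap: basal markers were at 12807 to 13685 CPM at 4 weeks and 5764 to 8372 CPM at 6 weeks, fibroblast markers at 1064 to 5661 and 70.1 to 518 CPM, Schwann cell markers at 580 to 1279 and 320 to 438 CPM, and hormone-sensing markers at 46.8 to 66.8 and 185 to 359 CPM. Their part in Tcf7l1 was not tested. Wnt6 and Sfrp5 had lower levels too, with -2.82 (SE 0.94, adjusted p = 0.063) and -2.63 (SE 0.99, adjusted p = 0.0919). Without the libraries that stood apart 3 were called, while the calls over all genes rose from 1320 to 2339. Without a filter none was called. In wild type luminal cells Wnt5a was the only one called (3.1% of all genes), at 0.565, 1.34 and 1.08 CPM at 4 weeks and 35.7 and 6.32 CPM at 6 weeks (4.40, SE 1.07, adjusted p = 0.0344). Leaving out any 1 of these 5 libraries other than 6-week replicate 2 ended the call, and without 6-week replicate 1 the value was 2.66. Hormone-sensing markers moved alike, at 529 to 749 CPM at 4 weeks and 1382 and 1766 CPM at 6 weeks, while fibroblast markers were at 83.7 to 369 CPM and 14.6 and 31.5 CPM, and their part was not tested. Wnt6 and Fzd9, at 0 in both 6-week luminal libraries, had adjusted p of 0.151 and 0.182. At 9 weeks the luminal gate is a different one, so no level was set against it. Of the further pathway genes Cd44 was higher (2.06, SE 0.36, adjusted p = 0.00278) and the receptor Ror1 lower (-3.97, SE 1.18, adjusted p = 0.0398) in basal cells at 6 weeks. Whether the knockout effect changed between the ages was tested by interaction, and none of 37 genes passed in basal (0.0398% of all genes) or luminal cells (1.21%), with 1 and 6 at an unadjusted p under 0.05 (8.94% and 15.5% of all genes) and 0 and 4 called by DESeq2. The lowest were Tcf7l1 in basal (1.39, SE 0.64, adjusted p = 0.541) and Sfrp2 in luminal cells (6.18, SE 1.93, adjusted p = 0.122).

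For E2 and for strain no gene tested was called by edgeR in basal or luminal cells (0% in each of the 4 comparisons), while DESeq2 called 99 and 130 genes for E2 and 20 and 399 for strain in basal and luminal cells. The values are therefore given as levels. The spread within groups was wide, and each BN group was 1 library. At an unadjusted p under 0.05 there were 1 of 36 genes for E2 in basal (1.45% of all genes), 1 of 34 for E2 in luminal (3.45%), none for ACI against BN in basal (0.742%) and 2 in luminal cells (4.03%). Of the Wnt genes DESeq2 called Sfrp2 for E2 in basal cells and Dkk3 and Rspo3 for strain in luminal cells.

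Sfrp2 was at 13.2, 4.06 and 1.68 CPM in the ACI, ACI and BN control basal libraries and 62.1, 56.4 and 90.5 CPM in the E2 ones (3.59, SE 1.02, adjusted p = 1). It was higher in all 3 E2 basal libraries than in the control ones. Fibroblast markers were at 16891 CPM in the BN E2 and 494 to 1932 CPM in the ACI E2 basal libraries. In the control basal libraries they were at 1354 to 2816 CPM. The ACI E2 basal library of replicate 1 held 2289 CPM of basal and 2002 CPM of pericyte markers. The part of these cells in Sfrp2 was not tested. Dkk3 was at 0.211 and 11.9 CPM in ACI control luminal libraries, 231 and 238 CPM in ACI E2 and 0.0521 and 0.0530 CPM in BN control and BN E2 (ACI minus BN 9.99, SE 2.46, adjusted p = 0.985; E2 minus control 4.51, SE 1.71, adjusted p = 0.999). The ACI E2 luminal libraries also held 5294 CPM of fibroblast markers in replicate 1 and 1613 CPM of basal markers in replicate 2. The BN control luminal library, with Dkk3 at 0.0521 CPM, held 1197 CPM of fibroblast and 1557 CPM of basal markers. The part of these cells in Dkk3 was not tested.

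The ACI control luminal libraries stood out in several ligands. Wnt11 was at 859 and 762 CPM there, 233 and 95.7 CPM in ACI E2, 91.6 CPM in BN control and 113 CPM in BN E2 luminal libraries (E2 minus control -1.57, SE 0.74, adjusted p = 0.999; ACI minus BN 1.63, SE 0.80, adjusted p = 0.985). Wnt4 was at 168 and 175 CPM in ACI control and 0.0575 and 21.0 CPM in ACI E2, with 1.98 CPM in BN control and 15.1 CPM in BN E2. Wnt5a was at 62.7 and 44.3 CPM in ACI control and at 0 and 7.76 CPM in ACI E2, with 0 in BN control and 3.39 CPM in BN E2. Wnt4, Wnt5a, Wnt9a and Wnt11 were thus higher in both ACI control libraries than in every other luminal library of the experiment. Hormone-sensing markers moved alike, at 542 to 875 CPM in ACI control, 59.0 to 283 CPM in ACI E2 and 24.6 and 109 CPM in BN libraries, and their part was not tested. These genes were picked after their values were seen, and the share of all genes with the same order was not counted. Genes of other roles had this order too, such as Fzd3. It was at 56.3 and 70.6 CPM in ACI control and at most 32.4 CPM in the other luminal libraries. Rspo3 was at 32.5 and 20.2 CPM in ACI control luminal libraries, 0 and 3.28 CPM in ACI E2 and 0 in both BN libraries, and Axin2 was at 4.44 and 5.36, 2.70 and 2.35, 3.75 and 2.81 CPM in the same order, lower in all 3 E2 than in all 3 control libraries (-0.83, SE 1.67, adjusted p = 0.999). In basal cells Rspo3 for E2 (-8.90, SE 4.56) and Wnt2b, Sfrp4 and Wnt9a for strain (-8.44, SE 3.85, -9.92, SE 6.23 and -3.71, SE 2.48) had the next lowest p, each with libraries at or near 0 and an adjusted p of 1. Of the further pathway genes none was called for E2 or strain.

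**Figure D5:**
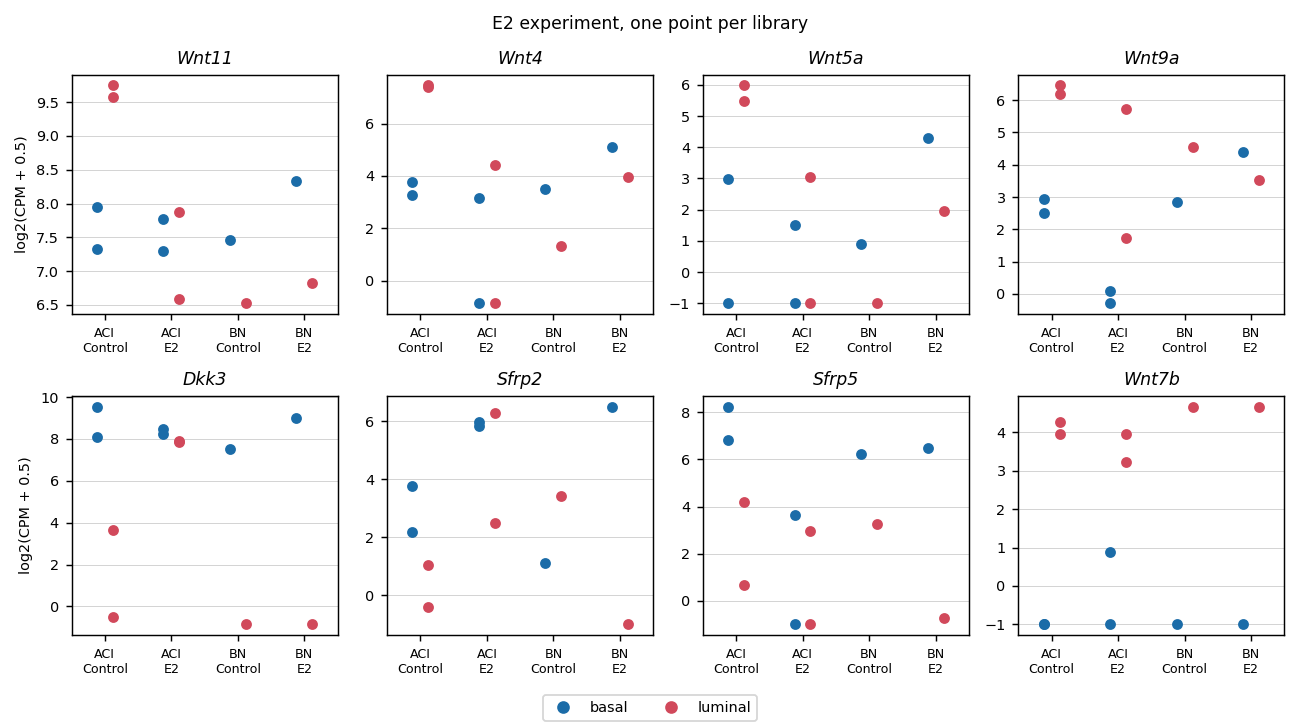
Levels of 8 Wnt genes in the E2 experiment, on the log2(CPM + 0.5) scale, by strain and treatment. Each point is 1 library, blue for basal and red for luminal cells; Wnt11, Wnt4, Wnt5a and Wnt9a are highest in the 2 ACI control luminal points, and each BN group has 1 point per cell type.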

How the data were processed

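RNA was measured in FACS-sorted rat mammary epithelial cells. The authors made low-input (SMARTer) single-end libraries, aligned reads with STAR 2.5.1b to rn6 and counted them per gene with htseq-count on the UCSC refGene annotation; the deposited values are raw counts per gene, without strand. Reads not assigned to a gene (47.1 to 77.0% per library) were left out. Progesterone receptor peaks were not used here, because they are on rn6 and the reference given was GRCr8, so peaks near these genes were not compared. PCR copies were not removed by molecular identifiers.

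Counts of 17356 genes were fitted with edgeR 4.0.16 in R 4.3.3 (TMM, filterByExpr by group, quasi-likelihood test, Benjamini-Hochberg adjustment over all genes tested). The 9-week, the 4-week and the 6-week libraries were each 1 fit with a group for every genotype and population. At 9 weeks the PNA+ and Cd49b+ libraries of a genotype formed 1 LP group of 4 libraries. Differences between these fractions therefore counted as spread within the LP group. PNA+ and Cd49b+ libraries were compared with each other in a separate fit. The 4- and 6-week libraries together formed the fit for age, and the 12 libraries of the E2 experiment were fitted within basal and luminal cells with strain and treatment as terms. Groups came from the labels. The SE is the absolute log2 fold change over the square root of F. Alternatives were RLE scaling, no filter, DESeq2 1.42.0, compared libraries alone, blocks, summed LP libraries, wild type alone, and leaving out each library. The code was tested on simulated data. No 2 replicates of a group agreed within sampling noise (lowest chi-square per degree of freedom 45.2 in 28 pairs).

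Members, gene lists and tests were chosen with earlier results of these data known. Axin2 and Lef1 were always named for basal against luminal cells and for genotype. In each comparison the called members were named up to 12 by size, or at least 3 by lowest p. The other called members and those of the number pattern were named after their values were seen. Marker lists covered basal, luminal, hormone-sensing, LP, fibroblast, endothelial, pericyte, Schwann, lymphoid, myeloid and adipocyte genes (64 of 66 in the files). Pairing was checked on deviations from group means. At 9 weeks libraries of 1 genotype and number correlated at 0.261 to 0.803 in 24 of 24 pairs. With 2 libraries in a group, numbers 1 and 2 give the same correlation, so these 24 values are not independent. The number served as a block there. For knockout against wild type this block also joined the same number of both genotypes, which these correlations do not cover. Titles name the animal in the younger and E2 experiments, where basal and luminal libraries of 1 animal correlated at 0.0985 to 0.602 (4 weeks), -0.0025 to 0.0776 (6 weeks) and 0.0538 to 0.213 (E2).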

Additional observations from a re-analysis of the deposited data

Results flagged for a closer look

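In the knockout LP libraries at 9 weeks, taken as a group of 4, the Cd49b+ library number 2 lay far above the other 3 in 4 genes. Dkk3 was at 73.7 CPM there and 5.08 to 15.4 CPM in the others. Wnt10a was at 16.6 CPM against 0.968 to 1.99 CPM, Fzd4 at 10.9 CPM against 2.37 to 3.12 CPM, and Dkk2 at 3.17 CPM against 0.145 to 0.527 CPM. Its gap to the next library, as a share of the whole range, was above the 95% critical value for 4 samples in each case. With 66 groups of values tested, chance alone is expected to flag about 1 in 20. The 4 flagged are near that share. The same library held 3086 CPM of basal markers and 991 CPM of endothelial markers, against 457 to 689 CPM and 154 to 302 CPM in the other 3, and the part of such cells in its Wnt genes was not tested.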

How the results depend on the processing

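No called gene named in the text changed direction under an alternative. Of the 151 log2 fold changes of named genes, 7 had another sign without 1 library, and none of the 7 was called. They were Lef1 for basal against luminal in the E2 experiment (0.82, with -0.39 without the BN E2 basal library, -0.39 without the BN E2 luminal one and -0.22 without ACI control luminal replicate 1), for knockout in LP (-0.40 and 0.10, without wild type Cd49b+ number 1), in basal cells at 4 weeks (0.34 and -0.24, without knockout replicate 1) and in luminal cells at 6 weeks (-3.4 and 2.32, without wild type replicate 1), Axin2 in basal cells at 4 weeks (-0.45 and 0.24, without knockout replicate 1), Sfrp4 for strain in basal cells (-9.92 and 0.83, without the BN E2 library) and Wnt11 for the knockout effect in LP against luminal (-1.13 and 0.17, without knockout luminal number 2). DESeq2 called 2 genes of the module for knockout in LP, 2 for PNA+ against Cd49b+, 3 for knockout at 6 weeks in luminal cells, 12 for basal against luminal at 6 weeks, 8 for that comparison in the E2 experiment, 3 for age in wild type basal cells, 4 for the change of the knockout effect with age in luminal cells, 1 for E2 in basal and 2 for strain in luminal cells. For age in basal cells RLE scaling gave 2 and no filter 0, and no filter gave 1 for basal against luminal in the E2 experiment. The replicate block, which pairs libraries by number at 9 weeks and by animal elsewhere, gave 2 for knockout in LP, 15 for LP against luminal and 1 (Wnt7b) for basal against luminal in the E2 experiment, and it moved no other count of the module by over 1.5 times. Numbers of the same population in the other genotype correlated at -0.301 to 0.0014, and pairing them crosswise, an alternative chosen after seeing the data, gave 5 for knockout in LP and 0 in basal and luminal cells. Summing LP libraries by number gave 0 for knockout in LP and 2 for LP against luminal. Leaving out both 6-week libraries that stand apart (chosen after seeing the data) gave 11 for basal against luminal at 6 weeks and 3 for age in basal and 3 in luminal cells, and leaving out both ACI E2 replicate 1 libraries gave 4 for basal against luminal. The cause of these changes was not tested.

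Leaving out 1 library at a time gave 0 to 6 genes for knockout in LP (6 without Cd49b+ knockout number 2), 0 to 6 for LP against luminal (0 without luminal wild type number 1, 1 without luminal knockout number 1), 16 to 18 for basal against luminal and 18 to 23 for basal against LP at 9 weeks, 20 to 24 at 4 weeks, 2 to 10 at 6 weeks and 0 to 2 in the E2 experiment. It gave 0 to 7 for knockout in luminal cells at 6 weeks (7 without replicate 1 labelled knockout, which leaves the library that stood apart as the only knockout one), 0 to 2 for age in basal and 0 to 3 in luminal cells, 0 to 8 for the change of the knockout effect with age in luminal cells (8 without the same library), and 0 to 1 for the knockout effect in LP against basal (Fzd4, without Cd49b+ knockout number 2). The other comparisons gave 0 throughout. A group left with 1 library was assumed to vary like the other groups of its fit.

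Over all genes DESeq2 called 1096 for knockout in LP where edgeR called 436, 168 and 164 in basal and luminal cells for 7 and 17, 1929 for 673 in basal against luminal at 6 weeks, 2153 for 262 in the E2 experiment, and 2640 and 1646 for 1320 and 390 for age in basal and luminal cells. Summed LP libraries gave 5 genes in place of 436. The replicate block gave 671 in place of 436 for knockout in LP and 5865 in place of 2999 for LP against luminal. Crosswise pairing gave 1284 for knockout in LP. Without both 6-week libraries that stand apart there were 1853 in place of 673 for basal against luminal at 6 weeks. Without both ACI E2 replicate 1 libraries there were 806 in place of 262 for that comparison in the E2 experiment. Few counts lie behind Lgr5 in luminal and LP libraries at 9 weeks and Lef1 in luminal cells at 4 weeks, and depth was not varied. Peaks near these genes were not run.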
